A study of Homo sapiens with 12 samples.

Results

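The HOX genes are the homeobox genes that lie in 4 clusters, HOXA on chromosome 7, HOXB on chromosome 17, HOXC on chromosome 12 and HOXD on chromosome 2. They were taken by symbol from the deposited gene table, as HOX followed by the cluster letter and a number, which gave 39 of the 57905 genes listed. The 39 members comprised 11 HOXA, 10 HOXB, 9 HOXC and 9 HOXD genes. RNA was measured by sequencing of stranded mRNA libraries from HCC4006, HCC827 and PC9, which are established lung cancer cell lines, described in the labels as EGFR-mutant non-small-cell cancer cells. Each line gave 2 libraries of dormant cells, which had received 100 nM osimertinib, an inhibitor of EGFR, plus 30 nM of the MEK inhibitor trametinib over 2 weeks on larger plates. Each line also gave 2 libraries of control cells that had received the solvent DMSO for 24 hours on smaller plates. Drug, duration and plate therefore cannot be told apart, and the labels do not say that the 2 libraries of a group came from separate cultures, so that p-values measure only the spread between these samples.

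HOX proteins are transcription factors that bind DNA through a homeodomain, usually with partners of the TALE family (PBX, MEIS and PKNOX proteins). In the embryo the genes of a cluster are switched on in the order in which they lie on the chromosome, low-numbered genes at the head end and high-numbered genes towards the tail, and adult cells keep parts of that pattern as a record of position. Silent clusters carry Polycomb marks, Trithorax complexes keep active ones open, and retinoic acid is a classical inducer of low-numbered members.

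The lines differed in the HOXD cluster, and the sequences before the starts of its high-numbered genes are shown because these neighbours differed in level: HOXD10 and HOXD11 were read in every HCC4006 library, HOXD13 was barely read, and HOXD12 was listed at 0 in all 12 libraries. Each stretch holds the 250 bases before the annotated start on the plus strand, 5′ to 3′, from RefSeq on GRCh38.p14, at chr2:176116528-176116777 for HOXD10, chr2:176107030-176107279 for HOXD11, chr2:176099545-176099794 for HOXD12 and chr2:176092471-176092720 for HOXD13. Capitals mark matches on either strand to 3 motifs, the TATA box TATAAA, the CCAAT box CCAAT and TGATNNAT, the kind of site that PBX and HOX proteins bind together.
HOXD10: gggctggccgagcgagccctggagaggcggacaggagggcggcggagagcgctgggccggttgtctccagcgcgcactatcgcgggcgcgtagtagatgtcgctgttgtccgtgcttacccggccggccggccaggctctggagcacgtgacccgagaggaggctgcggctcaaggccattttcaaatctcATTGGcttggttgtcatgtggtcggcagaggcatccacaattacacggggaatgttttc
HOXD11: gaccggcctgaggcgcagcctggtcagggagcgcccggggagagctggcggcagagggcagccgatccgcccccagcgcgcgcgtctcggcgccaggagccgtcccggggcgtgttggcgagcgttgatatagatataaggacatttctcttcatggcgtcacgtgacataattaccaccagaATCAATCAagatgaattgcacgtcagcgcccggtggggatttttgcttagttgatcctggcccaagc
HOXD12: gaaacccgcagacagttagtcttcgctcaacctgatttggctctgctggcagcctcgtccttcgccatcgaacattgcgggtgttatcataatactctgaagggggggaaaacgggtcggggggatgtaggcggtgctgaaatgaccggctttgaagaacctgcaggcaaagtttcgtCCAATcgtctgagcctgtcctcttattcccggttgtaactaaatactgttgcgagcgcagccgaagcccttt
HOXD13: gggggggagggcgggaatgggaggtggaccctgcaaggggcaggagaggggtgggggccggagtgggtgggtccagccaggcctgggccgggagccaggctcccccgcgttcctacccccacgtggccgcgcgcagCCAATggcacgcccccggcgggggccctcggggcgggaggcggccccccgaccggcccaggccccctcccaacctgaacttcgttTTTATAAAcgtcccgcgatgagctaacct
The capitals in the HOXD11 stretch are a reverse-strand TGATNNAT match. HOXD10, HOXD12 and HOXD13 each held 1 CCAAT match, on the reverse strand in HOXD10. HOXD13 also held TATAAA on both strands, as 2 overlapping matches. Over 35116 RefSeq promoter stretches of the same length, 10.7% held TATAAA, 32% held CCAAT and 6.47% held TGATNNAT. A match is a run of letters and not a bound site, and the lack of one says only that the letters are not in this window. The stretches held 23, 23, 16 and 21 CpG dinucleotides in HOXD10, HOXD11, HOXD12 and HOXD13, against a median of 11 over all stretches and of 19 over the 27 stretches of the 20 members that the RefSeq table covered.

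Levels are given as FPKM, a sequencing level scaled to transcript length and to the size of the library, as deposited by the authors, which allows levels of different genes to be set side by side. A HOX gene was entered in the tests when it reached 1 FPKM in at least 2 of the 12 libraries, and 10 of the 39 did, among them HOXA10, HOXB6, HOXB7, HOXC9, HOXC10, HOXC11, HOXC13, HOXD10 and HOXD11. The other 29 were not tested. Of these, 19 stayed below 0.5 FPKM in every library, among them HOXA4, HOXB1 and HOXD12, which were listed at 0 in all 12. Another 6 peaked between 0.5 and 1 FPKM, namely HOXA3, HOXA7, HOXB5, HOXB8, HOXB9 and HOXB13. The remaining 4, HOXB3, HOXC6, HOXD8 and HOXD9, passed 1 FPKM in a single library each. Members that passed through a group in which they are high had to differ, so the tested members do not stand for all 39.

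**Figure D1:**
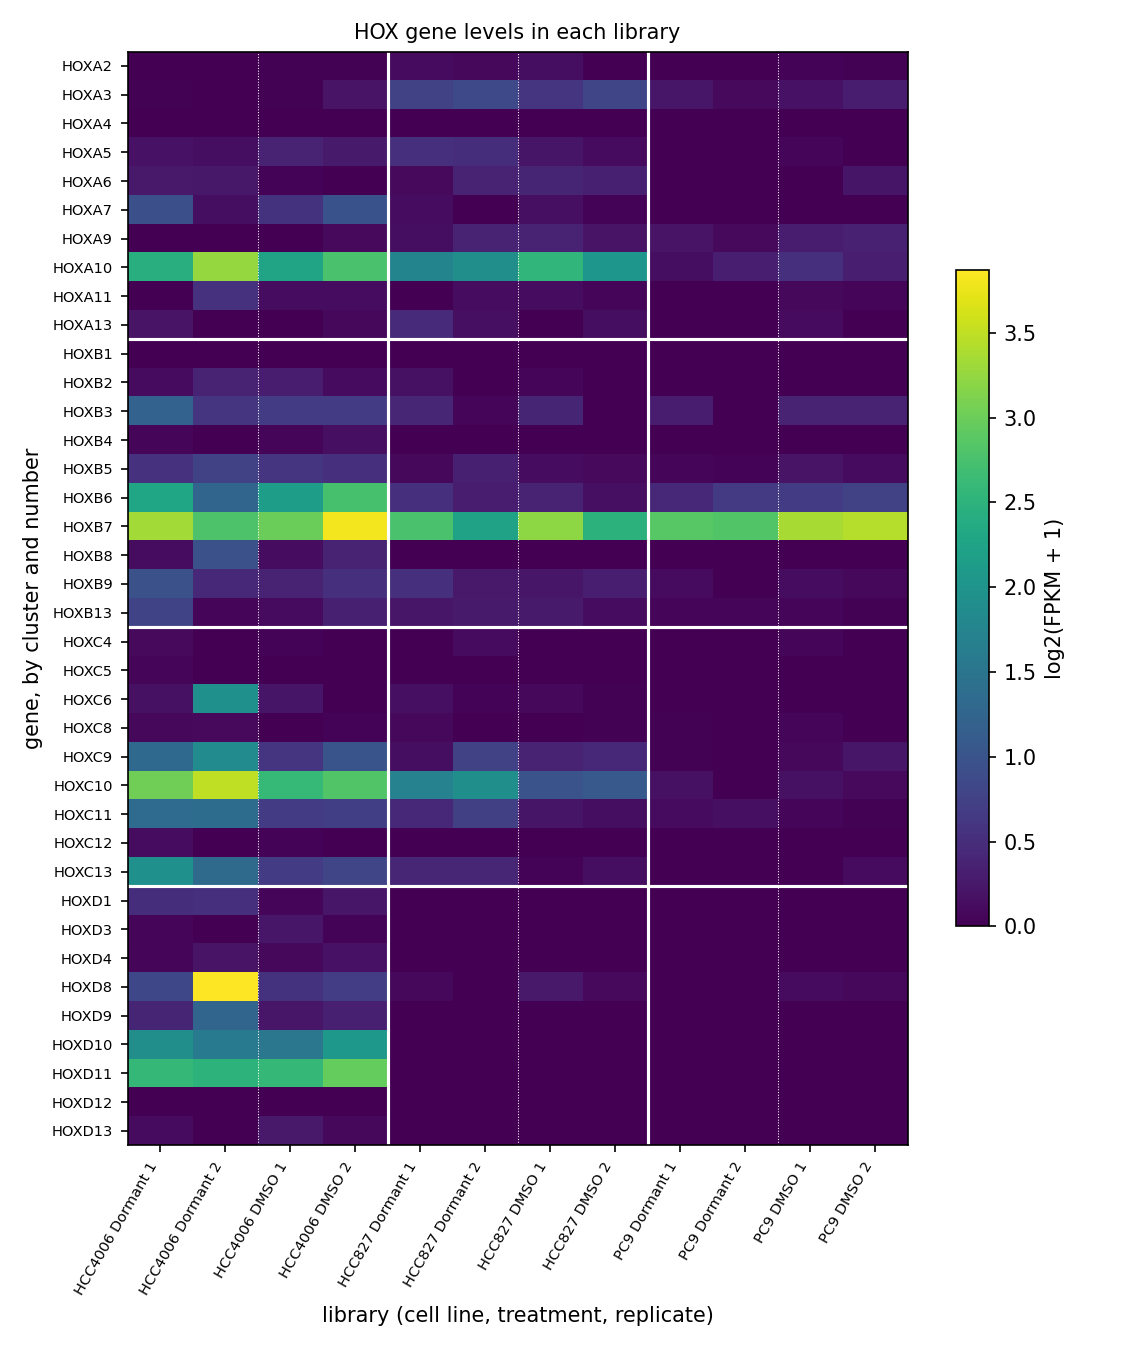
Level of the HOX genes in the 12 libraries, as the log2 of FPKM + 1, with genes in cluster order and libraries grouped by line and treatment, dormant before DMSO. HCC4006 shows the most genes above background, PC9 shows HOXB7 alone at a clear level, and the HOXD genes are at or near 0 (dark) outside HCC4006.

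The lines differed in how many members they expressed. In dormant HCC4006 cells 9 members reached 1 FPKM in both libraries, against 6 in HCC4006 cells in DMSO. In HCC827 there were 4 such members in dormant cells and 3 in DMSO, and in PC9 there was 1 in dormant cells and 1 in DMSO, which was HOXB7 in both cases. High-numbered genes made up most of them. Of the 24 members with numbers from 6 to 13, 9 reached this level in both libraries of at least 1 group. Of the 15 members with numbers from 1 to 5, 1 did. The higher numbers also make up most of the 39 members.

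HOXB7, a mid-cluster gene also studied in breast cancer cells for its link to a mesenchymal shift, was the member read in all lines. It measured 9.05 and 5.89 FPKM in dormant HCC4006 cells, against 7.04 and 12.87 FPKM in DMSO. In HCC827 it measured 5.76 and 3.69 FPKM in dormant cells, against 8.22 and 4.575 FPKM in DMSO. In PC9 it measured 6.26 and 6.055 FPKM in dormant cells, against 9.31 and 9.88 FPKM in DMSO. Both dormant libraries lay below both DMSO libraries in PC9, while the groups overlapped in HCC4006 and in HCC827.

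HOXB6, its neighbour, which has been studied in the development of blood cells, followed another pattern and was high in HCC4006. It measured 3.825 and 1.405 FPKM in dormant HCC4006 cells, against 3.515 and 5.67 FPKM in DMSO. In HCC827 it stood at 0.445 and 0.24 FPKM in dormant cells, against 0.31 and 0.115 FPKM in DMSO, and in PC9 at 0.345 and 0.57 FPKM in dormant cells, against 0.59 and 0.675 FPKM in DMSO. Every HCC4006 library lay above every library of the other lines, with overlap between dormant and DMSO cells in HCC4006.

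HOXA10, known from the patterning of the uterus and from blood stem cells, was read in HCC4006 and HCC827 and was near 0 in PC9. It measured 4.375 and 8.515 FPKM in dormant HCC4006 cells, against 3.77 and 5.75 FPKM in DMSO. In HCC827 it measured 2.365 and 2.76 FPKM in dormant cells, against 4.82 and 3.105 FPKM in DMSO, and in PC9 0.105 and 0.25 FPKM in dormant cells, against 0.44 and 0.25 FPKM in DMSO. Dormant HCC827 cells lay below their DMSO controls without overlap, and the HCC4006 groups overlapped.

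The HOXD genes were tied to HCC4006. Of the 9 HOXD members, 8 were listed at 0 in all 8 libraries of HCC827 and PC9, and 5 of these 8 were above 0 in all 4 HCC4006 libraries. Across the other 3 clusters, 5 of 30 members were listed at 0 in the same 8 libraries. HOXD11, which shapes the forearm and the kidney together with HOXA11 in the mouse, measured 4.94 and 4.68 FPKM in dormant HCC4006 cells, against 4.935 and 6.79 FPKM in DMSO. HOXD10, which acts in hindlimb motor neurons in the mouse, measured 2.755 and 1.995 FPKM in dormant HCC4006 cells, against 1.905 and 3.165 FPKM in DMSO. Dormant and DMSO libraries overlapped for both genes.

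HOXD13, which shapes the digits, did not pass 0.195 FPKM in any library. HOXD8 was the exception among HOXD genes in HCC827 and PC9, where it ranged between 0 and 0.195 FPKM. In HCC4006 HOXD8 measured 0.79 and 13.61 FPKM in dormant cells, against 0.475 and 0.625 FPKM in DMSO, and the higher dormant value, from replicate 2, was the highest of any HOX gene in any library.

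HOXD8, HOXC6 and HOXD9 passed 1 FPKM in that HCC4006 dormant library alone. HOXC6 measured 0.125 and 2.845 FPKM in dormant HCC4006 cells, against 0.17 and 0.01 FPKM in DMSO, and HOXD9 measured 0.325 and 1.41 FPKM in dormant cells, against 0.18 and 0.27 FPKM in DMSO. This library stood apart from the rest. GAPDH, a housekeeping gene, measured 6.725 FPKM in it, against between 3755 and 19640 FPKM in the other 11 libraries. Of the genes tested, 1948 were listed at 0 in it, against between 368 and 802 elsewhere, and its correlation with its partner library over tested genes on the log2 scale was 0.65. Replicate 2 of HCC827 in DMSO was the other library that stood apart, with a correlation of 0.91 with its partner, while the other groups lay between 0.98 and 0.99. Called results for HOX genes below are also given without both of these libraries.

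The labelled cell type was checked against fixed markers. EPCAM, an epithelial surface protein, measured between 69.16 and 428.8 FPKM in all 12 libraries, and all 5 general epithelial markers (EPCAM, CDH1, KRT8, KRT18 and KRT19) were above 1 FPKM in every library. In replicate 2 of dormant HCC4006 cells, however, the keratins were far below its partner, with KRT8 at 5.87 against 685.7 FPKM, KRT18 at 12.96 against 526.4 FPKM and KRT19 at 9.905 against 363.3 FPKM. Of the 3 markers of lung epithelium, NKX2-1 was listed at 0 in the 4 PC9 libraries and lay between 1.34 and 7.8 FPKM in the other lines, SFTPB did not pass 2.125 FPKM, and NAPSA ranged between 0 and 72.08 FPKM. The immune markers PTPRC and CD3E and the endothelial marker CDH5 did not pass 0.145 FPKM in any library. Of the 3 fibroblast markers, DCN did not pass 0.105 FPKM, while COL1A2 measured 367.7 and 249.6 FPKM and COL1A1 7.445 and 12.23 FPKM in dormant HCC4006 cells, against at most 1.04 and 0.805 FPKM in HCC4006 cells in DMSO. VWF, another endothelial marker, measured 3.05 FPKM in replicate 2 of dormant HCC4006 cells and at most 0.135 FPKM elsewhere. CD68, a marker of macrophages that tumour cells can also express, was listed at 0 in that library and lay between 5.175 and 28.98 FPKM in the others.

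**Figure D2:**
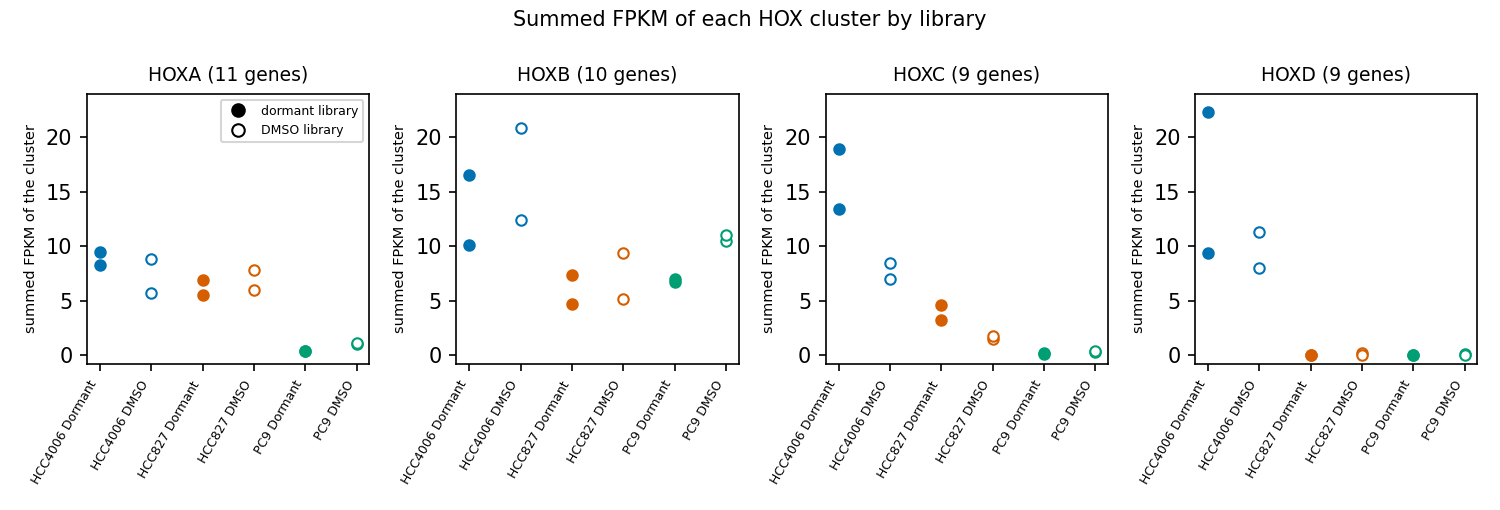
Summed FPKM of the members of each HOX cluster in each library, with dormant left of DMSO for each line. The HOXC sum is higher in both dormant libraries than in both DMSO libraries of HCC4006 and of HCC827, and the HOXD sum is close to 0 in HCC827 and PC9.

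Summed over a cluster, the HOXC genes were the ones that stood higher in dormant cells in HCC4006 and HCC827. The HOXC sum was 13.45 and 18.92 FPKM in dormant HCC4006 cells, against 6.955 and 8.5 FPKM in DMSO. In HCC827 it was 3.245 and 4.6 FPKM in dormant cells, against 1.525 and 1.725 FPKM in DMSO, and in PC9 0.25 and 0.145 FPKM in dormant cells, against 0.34 and 0.35 FPKM in DMSO. The groups did not overlap in any line, with dormant cells above DMSO in HCC4006 and HCC827 and below it in PC9, where the sums were under 0.5 FPKM. These sums are a description and were not tested. In bulk RNA, fewer cells that express a gene and less of its RNA per cell cannot be told apart.

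The sums of the other clusters moved less evenly. The HOXB sum was 16.54 and 10.15 FPKM in dormant HCC4006 cells, against 12.44 and 20.82 FPKM in DMSO, and 7.33 and 4.66 FPKM in dormant HCC827 cells, against 9.36 and 5.12 FPKM in DMSO. In PC9 the HOXB sum was 7.01 and 6.71 FPKM in dormant cells, against 10.46 and 11.03 FPKM in DMSO, without overlap, and HOXB7 was the sole member above 1 FPKM there. The HOXA sum overlapped between dormant and DMSO cells in HCC4006 and HCC827, and in PC9 it was 0.435 and 0.395 FPKM in dormant cells, against 1.03 and 1.085 FPKM in DMSO, without overlap. The sum over all 39 members was 47.69 and 60.82 FPKM in dormant HCC4006 cells, against 33.05 and 49.43 FPKM in DMSO, and 7.695 and 7.25 FPKM in dormant PC9 cells, against 11.92 and 12.52 FPKM in DMSO.

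**Figure D3:**
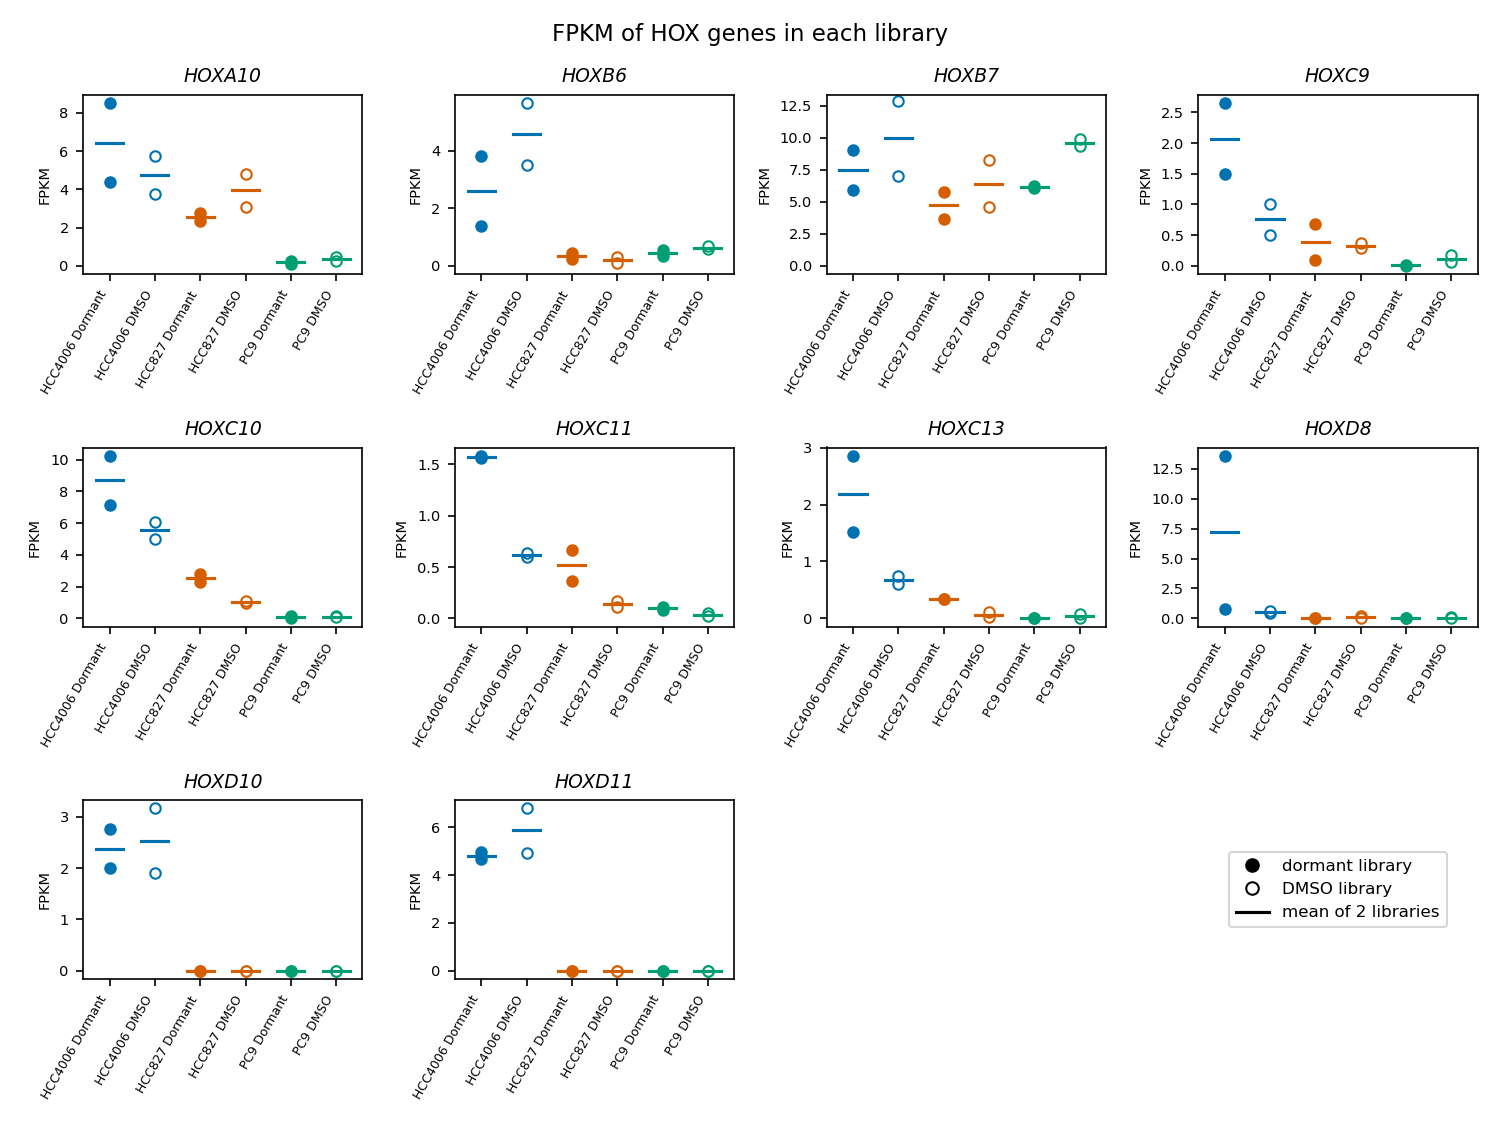
FPKM of single HOX members in each library, dormant left of DMSO within each line, 1 point per library. HOXC10, HOXC11 and HOXC13 lie higher in dormant than in DMSO libraries of HCC4006 and HCC827, and HOXB7 is present in all lines.

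HOXC10, which specifies hindlimb motor neurons in the mouse, was the HOXC gene with the highest level. It measured 7.145 and 10.25 FPKM in dormant HCC4006 cells, against 5.01 and 6.07 FPKM in DMSO. In HCC827 it measured 2.27 and 2.8 FPKM in dormant cells, against 0.99 and 1.105 FPKM in DMSO. In PC9 it stood at 0.13 and 0.01 FPKM in dormant cells, against 0.13 and 0.065 FPKM in DMSO. Dormant libraries lay above DMSO libraries without overlap in HCC4006 and HCC827, and PC9 had next to none.

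HOXC11, a posterior gene expressed in the developing hindlimb, measured 1.565 and 1.585 FPKM in dormant HCC4006 cells, against 0.6 and 0.64 FPKM in DMSO. In HCC827 it measured 0.365 and 0.665 FPKM in dormant cells, against 0.165 and 0.11 FPKM in DMSO. In PC9 it measured 0.08 and 0.115 FPKM in dormant cells, against 0.05 and 0.02 FPKM in DMSO. Dormant cells were above DMSO cells without overlap in all 3 lines, and the levels were highest in HCC4006 and lowest in PC9. HOXC11 reached 1 FPKM in the dormant HCC4006 libraries alone and passed the filter through them, so the lack of overlap in HCC4006 was bound to follow. The PC9 values were near 0 in dormant and DMSO cells alike.

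HOXC13, which controls hair keratin genes, measured 2.86 and 1.525 FPKM in dormant HCC4006 cells, against 0.61 and 0.75 FPKM in DMSO. In HCC827 it measured 0.335 and 0.34 FPKM in dormant cells, against 0.025 and 0.11 FPKM in DMSO, and in PC9 it was listed at 0 and 0.01 FPKM in dormant cells, against 0 and 0.085 FPKM in DMSO. HOXC9, which patterns the thoracic spinal cord in the mouse, measured 1.49 and 2.65 FPKM in dormant HCC4006 cells, against 0.51 and 1.005 FPKM in DMSO. In HCC827 HOXC9 measured 0.1 and 0.675 FPKM in dormant cells, against 0.29 and 0.365 FPKM in DMSO, and in PC9 0.02 and 0 FPKM in dormant cells, against 0.06 and 0.18 FPKM in DMSO. HOXC13 did not overlap between dormant and DMSO cells in HCC4006 or HCC827, and HOXC9 overlapped in HCC827. HOXC13 also passed the filter through the dormant HCC4006 libraries alone, so its lack of overlap in HCC4006 was bound to follow. HOXC4, HOXC5, HOXC8 and HOXC12 did not pass 0.09 FPKM in any library.

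Counted over the 10 tested members, 4 had both dormant libraries above both DMSO libraries in HCC4006, HOXC9, HOXC10, HOXC11 and HOXC13, and over all 14699 genes tested the share was 30.4%. In HCC827 the count was 3, HOXC10, HOXC11 and HOXC13, and the share over all genes 40%. In PC9, 3 members, HOXB6, HOXB7 and HOXC9, had both dormant libraries below both DMSO libraries, and the share over all genes was 27%. In the opposite direction, 0 members had both dormant libraries below in HCC4006, against 15.8% of all genes, and 1 in HCC827, against 19.4%, while 1 in PC9, HOXC11, had both above, against 35.5%. HOXC11 and HOXC13 passed the filter through the dormant HCC4006 libraries alone, so their place in the HCC4006 count was fixed in advance. The counts in HCC4006, HCC827 and PC9 are near the background or rest on so few members that nothing is read from them.

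Change in dormant cells was tested with limma on log2(FPKM + 1) across all 14699 genes, with Benjamini-Hochberg adjustment over all of them and a threshold of 0.05. Differences on this scale understate the change of low genes. As a mean over the 3 lines, 1 of the 10 members rose and 0 fell, and over all genes 10.9% rose and 4.55% fell. The member was HOXC11, with a difference of 0.39 ± 0.11 (SE) and an adjusted p of 0.0404 in limma. It was higher in dormant cells in 3 of 3 lines, but in PC9 by 0.08 ± 0.19 (SE) at levels near 0. HOXC11 reached 1 FPKM in the 2 dormant HCC4006 libraries alone and so entered the test through a group in which it is high, which favours a call in this direction. At an unadjusted p under 0.05, 3 members were higher, HOXC10, HOXC11 and HOXC13, and 0 lower. The median difference was -0.04 over the 10 members and 0.22 over all genes tested, so that the general shift lay towards dormant cells.

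The HOXC11 call was a narrow one. It was lost in the 10 fits that left out 1 library from any group other than dormant HCC4006, with adjusted p between 0.0511 and 0.126 in limma, and it was kept without replicate 1 or 2 of dormant HCC4006, at 0.00517 and 0.00948. It was also lost without a filter on low genes, with both other scalings and with either column of the libraries alone, at between 0.0559 and 0.156. Without both libraries that stood apart it was kept, at a difference of 0.37 and an adjusted p of 0.0133 in limma, and HOXC13 joined it. Without replicate 2 of dormant HCC4006 alone the same 2 genes were called. Without replicate 1 of dormant HCC4006, which leaves the library that stood apart as its group's sole one, 5 members were called, among them HOXC10, HOXC11 and HOXC13 higher and HOXB6 lower.

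Within HCC4006, 1 member rose and 0 fell, against 4.88% and 1.18% of all genes. HOXC13 was this member, with a difference of 0.90 ± 0.23 (SE) and an adjusted p of 0.049 in limma. Like HOXC11, it reached 1 FPKM in the 2 dormant HCC4006 libraries alone and entered the test through the group in which it is high, which favours this call. HOXC11 had a difference of 0.67 ± 0.19 at an adjusted p of 0.0659, and HOXC9 one of 0.79 ± 0.28 at 0.105, neither of which passed. The HOXC13 difference was 0.59 without replicate 1 of dormant HCC4006 (adjusted p 0.0101 in limma) and 1.20 without replicate 2 (0.00153), and the same 1.20 at 0.00151 without both libraries that stood apart. Leaving out any one of the other 10 libraries lost the call, at adjusted p between 0.0693 and 0.278, as did a pseudocount of 0.1, no filter, both other scalings and either column alone, at between 0.0582 and 0.163. Without replicate 2 of dormant HCC4006, HOXC11 and HOXC13 were called in this line. Without replicate 1, 6 members were called, among them the 4 tested HOXC genes higher and HOXB6 lower. Markers of fibroblasts moved with these genes in HCC4006: COL1A2, a fibrillar collagen chain, measured 367.7 and 249.6 FPKM in dormant cells, against 0.77 and 1.04 FPKM in DMSO, and COL1A1 7.445 and 12.23 FPKM in dormant cells, against 0.805 and 0.48 FPKM in DMSO, while DCN did not pass 0.04 FPKM in that line. Summed over the 3, the list reached 375.1 and 261.8 FPKM in dormant HCC4006 cells, against 1.575 and 1.56 FPKM in DMSO. In HCC827 this sum was 2.89 and 2.72 FPKM in dormant cells, against 0.585 and 0.385 FPKM in DMSO, and in PC9 0.375 and 1.55 FPKM in dormant cells, against 0.755 and 0.995 FPKM in DMSO. Their part in the result was not tested.

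No member passed in the other lines. In HCC827, where 4.5% of all genes were called in either direction, limma called 0 of 10 members, with 1 at an unadjusted p under 0.05, HOXC10, at a difference of 0.78 ± 0.32 (SE) and an adjusted p of 0.225. In PC9, where 2.71% of all genes were called, limma called 0 of 10, with 0 at an unadjusted p under 0.05. The largest difference there was that of HOXB7, -0.57 ± 0.46 (SE) at an adjusted p of 0.801. HOXB7 was the sole tested member above 1 FPKM in PC9, and members near 0 could hardly be called on this scale. HOXD10 and HOXD11 were listed at 0 in every library of HCC827 and PC9 and could not be called in these lines. The counts of 0 therefore say little about change. Whether the change differed between the lines was tested with limma's F test, which called 0 of 10 members and 1.48% of all genes. HOXC13 came nearest, with an adjusted p of 0.388, and was the 1 member with an unadjusted p under 0.05. The change of HOXC13 and HOXC11 is therefore not shown to differ between HCC4006 and the other lines, except that HOXC13 passed this test without both libraries that stood apart, at 0.0156, and without replicate 2 of dormant HCC4006 alone. Without replicate 1 of dormant HCC4006 the F test called 3 members, among them HOXB6 and HOXC9. HOXC10 was called in HCC827 when either dormant HCC4006 library was left out, which changes the spread shared by all groups.

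**Figure D4:**
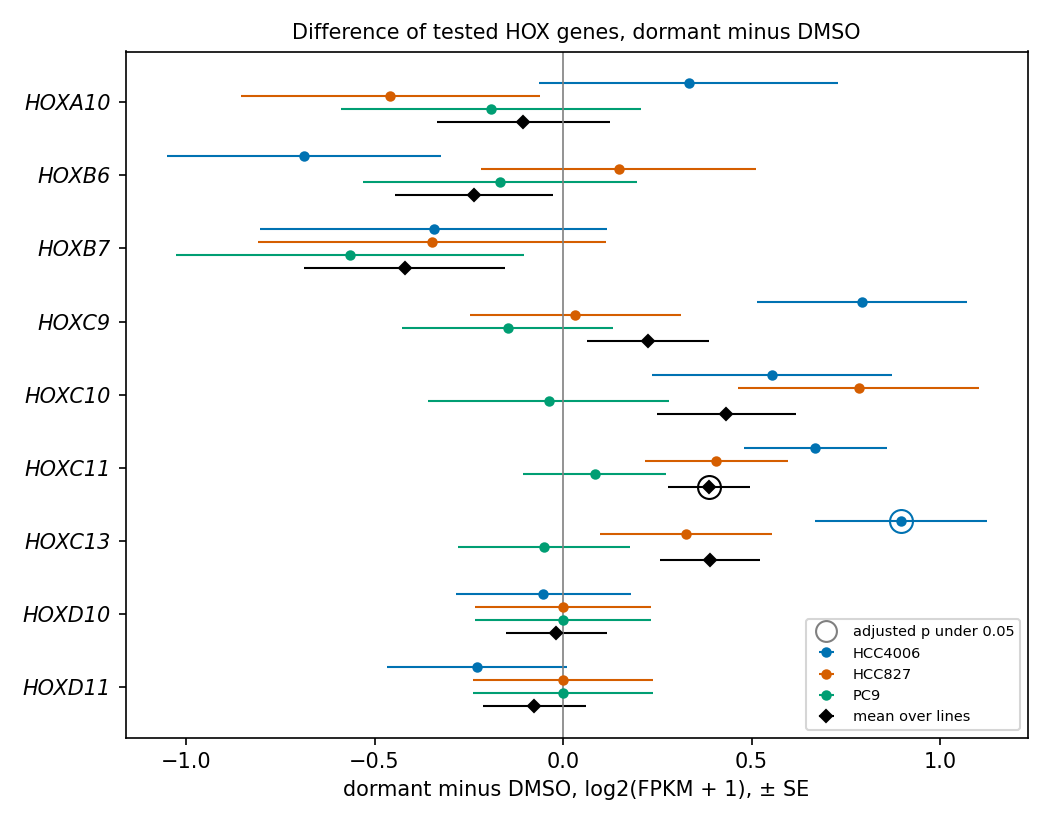
Dormant minus DMSO difference of tested HOX members in each line and as the mean over lines, on the log2(FPKM + 1) scale, with SE bars from the spread shared by all groups. Circled points passed an adjusted p of 0.05, which were HOXC11 for the mean and HOXC13 in HCC4006.

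The members outside HOXC gave no call between dormant and DMSO cells. HOXD10 and HOXD11 in HCC4006 had differences of -0.05 ± 0.23 and -0.23 ± 0.24 (SE), at adjusted p of 0.899 and 0.541 in limma. HOXB7 had a mean difference over lines of -0.42 ± 0.27 at an adjusted p of 0.302, with negative values in all 3 lines. HOXB6 in HCC4006 had a difference of -0.69 ± 0.36 at an adjusted p of 0.227. HOXA10 had 0.33 ± 0.40 in HCC4006 and -0.46 ± 0.40 in HCC827, neither of which passed. A p that misses the threshold does not show that levels were equal.

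Levels between lines were compared in DMSO cells. Limma's F test over the 3 lines called 5 of 10 members, HOXA10, HOXB6, HOXC10, HOXD10 and HOXD11, where 12% of all genes were called. HOXB6, HOXD10 and HOXD11 reached 1 FPKM in HCC4006 libraries alone, and HOXA10 and HOXC10 in HCC4006 and HCC827 libraries alone. All 5 entered the test through lines in which they are high, which favours their calls. The 5 of 10 is therefore not read against the 12%. HOXD11 had an adjusted p of 9.4e-05, HOXD10 of 0.000988 and HOXC10 of 0.00165, followed by HOXB6 at 0.00723 and HOXA10 at 0.0122. For HOXD10 and HOXD11 the libraries of HCC827 and PC9 were all listed at 0, so that 4 of the 6 groups had no spread and the error is small on that account, and no fold is given.

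Taken pair by pair, HCC4006 was higher than PC9 for 5 of 10 members, the same 5 as above, against 5.48% of all genes. It was higher than HCC827 for 4, HOXB6, HOXC10, HOXD10 and HOXD11, against 3.52% of all genes. HCC827 was higher than PC9 for 1, HOXA10, against 4.11%. The filter favours the HCC4006 calls of HOXB6, HOXD10 and HOXD11 in these pairs too. HOXA10 and HOXC10 reached 1 FPKM in HCC4006 and HCC827 libraries alone, with at most 0.44 and 0.13 FPKM in PC9. Their calls over PC9 are favoured in the same way, so these counts are not read against the shares of all genes. HOXC10 in DMSO differed by 2.57 ± 0.32 (SE) between HCC4006 and PC9, at an adjusted p of 0.000995 in limma, and by 1.67 ± 0.32 between HCC4006 and HCC827, at 0.0144, with every HCC4006 library above every library of the other lines. The second of these calls was lost without either PC9 DMSO library, either HCC4006 DMSO library or replicate 2 of HCC827 in DMSO, at between 0.0517 and 0.118. Without both libraries that stood apart it was kept, at 0.00219. Between HCC827 and PC9 HOXC10 differed by 0.90 ± 0.32, at 0.124.

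HOXB6 differed by 1.75 ± 0.36 (SE) between HCC4006 and PC9, at an adjusted p of 0.0165 in limma, and by 2.18 ± 0.36 between HCC4006 and HCC827, at 0.00657. The first call was lost without either PC9 DMSO library or replicate 2 of HCC4006 in DMSO, at between 0.124 and 0.161, and without a filter, at 0.0536. The second was lost without replicate 2 of HCC827 or of HCC4006 in DMSO, at 0.0711 and 0.0806. HOXA10 differed by 2.08 ± 0.40 between HCC4006 and PC9, at 0.0111, and by 1.87 ± 0.40 between HCC827 and PC9, at 0.0186, while HCC4006 and HCC827 differed by 0.22 ± 0.40, at 0.844, and were not told apart. Its call against PC9 was lost without either PC9 DMSO library, at between 0.0984 and 0.185 over both pairs, and also without replicate 2 of HCC4006 in DMSO, at 0.115, for HCC4006, and without replicate 1 of HCC827 in DMSO, at 0.0683, for HCC827. HOXB7 did not pass between any pair, with an adjusted p of 0.597 in the F test. HOXC9, HOXC11 and HOXC13 did not pass either, at adjusted p between 0.0907 and 0.294. Without both libraries that stood apart all of these pairwise calls of HOX members were kept, at adjusted p of at most 0.00219, with HOXB6 between HCC4006 and HCC827 at 0.00136. With a pseudocount of 0.1 the F test called 7 members, with HOXC11 at 0.026 and HOXC13 at 0.0264 added. In the F test the calls of HOXC10, HOXD10 and HOXD11 held without any single library. HOXA10 lost its call without replicate 1 or 2 of PC9 in DMSO, at 0.109 and 0.153, and HOXB6 without replicate 2 of HCC4006 in DMSO, at 0.0778. Without replicate 1 or 2 of dormant HCC4006 or without both libraries that stood apart, the F test called 8 members, with HOXC11 and HOXC13 among those added.

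All 10 tested members overlap another annotated gene in GENCODE release 29 on one strand or the other, and 7 of them on the same strand, so their levels are uncertain where reads could be split. HOXD10 and HOXD11 overlap each other, HOXA10 overlaps HOXA9, HOXC11 lies against HOTAIR and HOXC13 against HOXC13-AS. The kit keeps strand, and whether the counting used it is not given in the sources used here.

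Of the 19 non-coding genes of the clusters in the table, 3 were tested and 0 were called by limma as a mean over lines. HOTAIR, a long RNA from the HOXC cluster reported to recruit Polycomb to HOXD in fibroblasts, measured 1.4 and 9.86 FPKM in dormant HCC4006 cells, against 0.155 and 0.86 FPKM in DMSO. In HCC827 HOTAIR measured 0.815 and 0.965 FPKM in dormant cells, against 0.035 and 0.23 FPKM in DMSO. In PC9 it measured 0.275 and 0.395 FPKM in dormant cells, against 0.29 and 0.245 FPKM in DMSO. Dormant cells lay above DMSO cells without overlap in HCC4006 and HCC827 and overlapped with them in PC9, and the value of 9.86 FPKM came from the HCC4006 library that stood apart. HOTAIR reached 1 FPKM in the dormant HCC4006 libraries alone and entered the test through them, so the lack of overlap there was bound to follow. Over all genes tested, 30.4% lay higher without overlap in dormant HCC4006 cells and 40% in dormant HCC827 cells. HOTAIRM1, a long RNA of the HOXA cluster, measured 7.545 and 16.93 FPKM in dormant HCC4006 cells, against 5.43 and 6.72 FPKM in DMSO, and 2.895 and 2.2 FPKM in dormant HCC827 cells, against 3.015 and 1.245 FPKM in DMSO. It was listed at 0 in all 4 PC9 libraries. Its DMSO level differed between lines at an adjusted p of 0.00672 in limma's F test, which called 12% of all genes. HOTAIRM1 reached 1 FPKM in HCC4006 and HCC827 libraries alone and entered the test through them, which favours this call. The PC9 groups had no spread, so the error is small on that account. The call was lost without replicate 1 or 2 of PC9 in DMSO and kept without both libraries that stood apart.

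Among regulators of HOX genes, lists chosen by function were counted in the same fit of the mean over lines. Of 9 TALE cofactors 5 were tested, with a median difference of 0.32 beside 0.22 over all genes. Of 17 Polycomb genes 13 were tested and 0 called, with a median difference of 0.30. Of 11 Trithorax genes and partners 8 were tested, and 1 rose and 0 fell, with a median of -0.01. A single gene of 8 is close to the 10.9% of all genes that rose. It was KDM6A, a demethylase that removes the Polycomb mark on histone H3, at 1.04 ± 0.25 (SE) and an adjusted p of 0.022 in limma. It measured 5.71 and 11.27 FPKM in dormant HCC4006 cells, against 1.465 and 3.4 FPKM in DMSO, and 7.885 and 8.82 FPKM in dormant HCC827 cells, against 2.775 and 3.01 FPKM in DMSO. In PC9 KDM6A measured 1 and 1.28 FPKM in dormant cells, against 0.39 and 0.87 FPKM in DMSO. Dormant cells were above DMSO cells in all 3 lines without overlap. Without either PC9 dormant library, either PC9 DMSO library, either HCC827 dormant library or replicate 1 of HCC4006 in DMSO, the call was lost, at adjusted p between 0.0602 and 0.0911. Without both libraries that stood apart the difference was 0.91, at 0.00738.

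Of 17 genes of the retinoic acid pathway 11 were tested, and 3 rose and 1 fell, beside 10.9% and 4.55% of all genes, with a median difference of 0.46. The 3 that rose were ALDH1A3 and ALDH1A1, which make retinoic acid, and CYP26A1, which breaks it down. CRABP1, which binds it in the cytoplasm, fell by 0.36 ± 0.09 (SE) at an adjusted p of 0.0237 in limma, and is named here after its values were seen. CRABP1 differed by -1.096 in HCC4006, 0 in HCC827 and 0.02 in PC9, so its mean rests on 1 line. CYP26A1 differed by 3.025 in PC9, 0.32 in HCC827 and 0 in HCC4006. ALDH1A1 differed by 2.59 in PC9, 0.04 in HCC827 and 0.33 in HCC4006. These genes each passed the filter through a single group in which they are high, which favours their calls. The CRABP1 call was lost without either PC9 dormant, either PC9 DMSO or either HCC827 dormant library, without replicate 1 of HCC4006 in DMSO, and with quantile normalization, at up to 0.0764, and it was kept without both libraries that stood apart, at 0.00793. ALDH1A3 measured 152.2 and 150.2 FPKM in dormant HCC4006 cells, against 82.84 and 110.8 FPKM in DMSO, and 51.39 and 50.95 FPKM in dormant HCC827 cells, against 10.84 and 7.855 FPKM in DMSO. In PC9 ALDH1A3 measured 400 and 400.1 FPKM in dormant cells, against 44.91 and 77.09 FPKM in DMSO, and the mean difference over lines was 1.92 ± 0.27 (SE) at an adjusted p of 0.00179 in limma, and 1.85 at 8.98e-05 without both libraries that stood apart. The 3 CDX factors, which switch on HOX genes in the embryo, were below the filter and not tested.

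CYP26A1, itself a retinoic acid target, measured 6.89 and 9.375 FPKM in dormant PC9 cells, against 0.07 and 0.155 FPKM in DMSO, and its PC9 difference was 3.03 ± 0.23 (SE) at an adjusted p of 0.000121 in limma. In HCC827 it stayed at 0.18 and 0.515 FPKM in dormant cells, against 0.12 and 0.025 FPKM in DMSO, and in HCC4006 it was listed at 0 in all 4 libraries. ALDH1A1 measured 9.88 and 5.015 FPKM in dormant PC9 cells, against 0.365 and 0.33 FPKM in DMSO, with a PC9 difference of 2.59 ± 0.31 at an adjusted p of 0.00196. The line in which these genes were highest in dormant cells, PC9, was the one with the fewest HOX members read. In PC9 cells in DMSO these genes did not pass 0.365 FPKM. The 1 HOX member that reached 1 FPKM in both libraries, HOXB7, was the same in DMSO and in dormant cells. A link between these genes and HOX levels was not tested.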

How the data were processed

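The authors deposited FPKM values per gene, rounded to 0.01, as 2 columns for each of the 12 libraries (24 value columns), and what sets the 2 columns of a library apart is not given in the sources used here. Per the submitters' processing notes, which give no roles, the tools were DESeq2 1.10.1, Cufflinks 2.2.1 and STAR 2.5.1b, and the build was hg19 (GRCh37). The columns were averaged per library. A gene was kept if 2 or more libraries reached 1 FPKM, and limma 3.58.1 (R 4.3.3) was fitted on log2(FPKM + 1) with 1 coefficient per group over 6 groups, with a mean-variance trend, 6 residual and 3.8 prior degrees of freedom, two-sided tests and Benjamini-Hochberg adjustment. Scripts used Python 3.11.15, pandas 2.3.3, numpy 2.4.6 and matplotlib 3.10.9, and the fit was tested on simulated data. The files give no counts, so the depth is unknown and no counting interval is given.

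Statistics are given for called members, and values in every library also for the 2 members of each cluster with the highest mean. From each related list up to 3 called genes with the largest mean difference are named, and HOTAIR and HOTAIRM1 were named after their values were seen. Members and lists were chosen with earlier results of these data known. The alternatives were another pseudocount, other filters, 2 other scalings, single columns, a replicate block and leaving out libraries. The RefSeq sequences are on another build than the values and were matched by symbol. Some members and related genes are not reported here by name, and counts and sums include them.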

Additional observations from a re-analysis of the deposited data

Results flagged for a closer look

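No HOX member met a rule for a closer look, and 3 related genes did, because their change in dormant cells differed between the lines. All 3 entered the test through a single group in which they are high, which favours such calls. The group was dormant PC9 cells for CYP26A1 and ALDH1A1, and HCC4006 cells in DMSO for CRABP1. CYP26A1 differed at an adjusted p of 0.00284 in limma's F test, with 6.89 and 9.375 FPKM in dormant PC9 cells, against 0.07 and 0.155 FPKM in DMSO, and 0 in all HCC4006 libraries. ALDH1A1 differed at an adjusted p of 0.0326, with 9.88 and 5.015 FPKM in dormant PC9 cells, against 0.365 and 0.33 FPKM in DMSO, and no more than 0.585 FPKM in any library of the other lines. CRABP1, a retinoic acid binding protein named after its values were seen, differed at an adjusted p of 0.0443, with 0.08 and 0 FPKM in dormant HCC4006 cells, against 1.345 and 1.105 FPKM in DMSO, and no more than 0.03 FPKM in the other lines. With a pseudocount of 0.1 none of these 3 tests passed, at 0.0522 for CYP26A1, 0.403 for ALDH1A1 and 0.118 for CRABP1. The CRABP1 call was also lost with both other scalings, either column alone and the replicate block, and the ALDH1A1 call without a filter. Both were lost in fits without 1 library as well, while CYP26A1 lost its call with the pseudocount alone.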

How the results depend on the processing

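With the mean over lines, 1 HOX member was called, and 0 without a filter, with a filter of 4 libraries (under which HOXC11 was not tested), with median-of-ratios scaling or with either column alone. With quantile normalization the 1 member called was another gene, HOXB7, which fell by 0.73 at an adjusted p of 0.0332 in limma. Without both libraries that stood apart the count was 2, and leaving out 1 library at a time gave 0 to 5, the 5 without replicate 1 of dormant HCC4006, where HOXB6 was among those called lower, and 2 without replicate 2. Within HCC4006 the count was 1, and 0 with a pseudocount of 0.1, the filter of 4 libraries, either other scaling or either column alone, 1 (HOXD1 in place of HOXC13) without a filter, and 2 without both libraries, with 0 to 6 when 1 library was left out. The count in HCC827 was 0, with 0 to 1 when 1 library was left out, and in PC9 it was 0 under every alternative run. The F test for a change that differs between lines gave 0, then 1 (HOXC13) without both libraries and 0 to 3 without 1 library. The F test of DMSO levels gave 5, then 7 with a pseudocount of 0.1 (HOXC11 and HOXC13 added), 8 without both libraries and 4 to 8 without 1 library.

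In the fit with the replicate number as a block, 0 members were called for the mean over lines and 0 in HCC4006, with HOXC11 at an adjusted p of 0.0617 for the mean and HOXC13 at 0.0646 in HCC4006, so that both calls were lost. The numbers are not shown to pair the libraries, since the deviations of same-numbered dormant and DMSO libraries correlated at 0.17 in HCC4006, 0.04 in HCC827 and 0.09 in PC9. Scaling moved the median mean difference over all genes, 0.22 as deposited, to 0.03 with median-of-ratios scaling and 0.03 with quantile normalization. No called value changed direction under the alternatives run. A fit without 1 library assumes that the lone library of its group varies like the others. The cause of the lost calls was not tested.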
